A study of Oryza sativa with 20 samples.

Results

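The last step of lamina joint development in the series, from stage S4 to stage S5, was examined in rice (Oryza sativa) seedlings. The lamina joint (LJ) is where blade and sheath of a grass leaf meet, and how far it bends sets the angle of the leaf. The groups were LJ at S5 and LJ at S4, with 2 libraries each, chosen by their labels, 4 of the 20 libraries in the series. Blade at S5 and blade at S4, with 2 libraries each, were used beside them. All came from the first complete leaf of seedlings raised in water under a light and dark cycle, with LJ pieces under a millimetre long, and no genotype, cultivar or treatment separates the groups. Collection spanned several days after germination, and which day gave S4 or S5 is not stated. A piece of LJ holds epidermis, ground tissue, fibres and vascular strands together, so fewer cells of a type and less RNA per cell cannot be told apart. The labels do not say whether replicate libraries are from different seedlings, so the p-values reflect the spread among libraries alone, and that spread may be technical.

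As background, the joint forms between blade and sheath together with the ligule and auricles, and LG1 is needed for it. Its cells first divide, then elongate more on the upper side than on the lower side, which pushes the blade outwards, while fibre strands and vascular bundles build thick secondary walls that stiffen the hinge. Brassinosteroids and auxin are the hormones best known to change this angle in rice. The values are FPKM, which scale fragment counts by transcript length and library size. Every difference below is S5 minus S4 on the log2(FPKM + 1) scale, with its standard error (SE) from the fit. A gene was called where its adjusted p from limma (Benjamini-Hochberg, 26403 genes tested) was under 0.05, and rose or fell is written only of called genes.

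Between S4 and S5 in the LJ, 7525 of 26403 genes were called (28.5%), 5145 of them higher (19.5%) and 2380 lower (9.01%). The median difference of all tested genes was 0.25. Of the 5145 higher genes, 3793 (73.7%) had their highest mean of the LJ stages at S5, and 1352 (26.3%) had been higher still at S1, S2 or S3. Of the 2380 lower genes, 1085 (45.6%) had their highest mean at S4, 869 (36.5%) at S3 and 426 (17.9%) at S1 or S2. Called genes with a mean under 1 FPKM at S4 and of 10 FPKM or more at S5 numbered 40, and those with a mean under 1 FPKM at S5 and of 10 FPKM or more at S4 numbered 114. With upper quartile scaling the median of all genes was 0.05, and 3187 genes were called higher and 3043 lower (51.2% higher, against 68.4% as reported). With quantile normalization the median was 0.09 and 56.1% of the called genes were higher. When only these 4 libraries were fitted, limma called 0 genes, with 9563 at an unadjusted p under 0.05, so the calls rest on the spread estimated over the 10 groups of the series.

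The 2 S5 libraries correlated with each other at 0.978 across genes and the 2 S4 libraries at 0.928, and pairs across the stages at 0.834 to 0.88. The SD of the difference between replicates was 0.446 at S5 and 0.793 at S4, the largest of the 5 LJ stages. The fit takes a common spread per gene over all groups, so the SE of a difference from S4 may be too small. Between 20371 and 21372 genes reached 1 FPKM in these 4 libraries, and the FPKM total over rice gene IDs was 863633 and 860684 at S5, against 972086 and 940778 at S4. Read depth is unknown. Symbols are given for 336 tested genes, of which 55 rose, 50 fell and 231 were not called. In every named gene that was called, both S5 libraries lay on the same side of both S4 libraries, which a call nearly always entails (7523 of the 7525 called genes). Called or not, 67.8% of all tested genes had no overlap of libraries. The counts of called members in the lists below stand beside 19.5% higher and 9.01% lower over all tested genes.

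**Figure D1:**
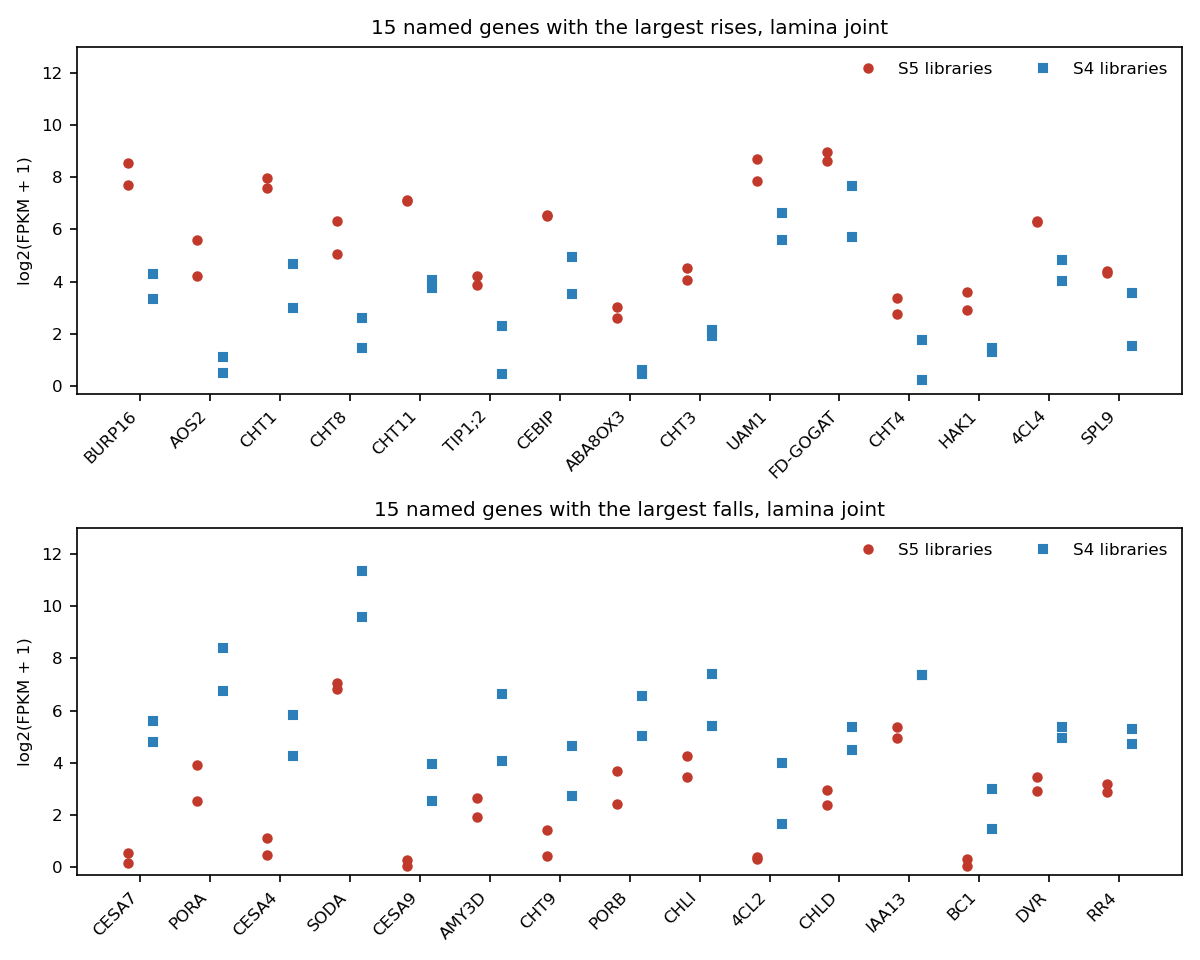
Log2(FPKM + 1) of each LJ library for the 15 named genes with the largest rises (top) and the 15 with the largest falls (bottom) among called genes, S5 as red circles and S4 as blue squares. In every gene shown both S5 points lie on the same side of both S4 points, and CESA7 has the largest fall (-4.87) and BURP16 the largest rise (4.33).

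Secondary-wall cellulose genes fell, with the lowest median of the gene lists examined. CESA4, CESA7 and CESA9 encode the subunits of the cellulose synthase that builds secondary walls, and BC1 (BRITTLE CULM1) encodes a COBRA-like protein needed for their cellulose. CESA7 (OS10G0467800) had 0.0973 and 0.465 FPKM at S5, against 27.1 and 48 FPKM at S4, a difference of -4.87 ± 0.47 (SE, adjusted p = 8.8e-06). CESA4 (OS01G0750300) had 0.386 and 1.18 FPKM at S5, against 18.1 and 56 FPKM at S4, a difference of -4.25 ± 0.51 (SE, adjusted p = 5.2e-05). The 2 libraries of each stage lay apart as well, by less than the stages. CESA9 (OS09G0422500) had 0.0388 and 0.191 FPKM at S5, against 4.74 and 14.4 FPKM at S4, a difference of -3.08 ± 0.46 (SE, adjusted p = 3.0e-04). BC1 (OS03G0416200) had 0.0268 and 0.241 FPKM at S5, against 1.73 and 6.87 FPKM at S4, a difference of -2.04 ± 0.49 (SE, adjusted p = 0.00730). In all 4 genes the S5 libraries lay far below both S4 libraries, and S5 replicate 1 was the lowest library. All 4 were called lower, with a median of -3.66 beside 0.25 for all tested genes. Over the stages CESA7 averaged 1.9 ± 0.15 FPKM at S1, 2.54 ± 0.693 at S2, 62.7 ± 38.2 at S3, 37.5 ± 14.8 at S4 and 0.281 ± 0.26 at S5 (SD, n = 2), a peak at S3 and S4 between low ends. BC1 averaged 0.116 ± 0.0588, 0.0731 ± 0.0358 and 6.87 ± 2.91 FPKM at S1, S2 and S3, 4.3 ± 3.64 at S4 and 0.134 ± 0.151 at S5 (SD, n = 2). BC1 lost its call without S5 replicate 1 or S4 replicate 2 (adjusted p up to 0.0798).

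The cellulose synthases of primary walls, laid down while cells grow, were not called. CESA1, CESA3, CESA5, CESA6 and CESA8 differed by -0.14, -1.04, 0.32, -0.32 and -0.28, 0 of 5 called by limma, with a median of -0.28. The nearest to the threshold was CESA3, with 36.6 and 59.8 FPKM at S5 and 67.2 and 140.4 FPKM at S4 (adjusted p = 0.0700). It was called lower with LJ and blade paired as blocks (adjusted p = 0.049). With upper quartile scaling 1 of the 5 was called lower and the median was -0.554. CSLF6, the synthase of the mixed-linkage glucan of grass walls, fell, with 7.58 and 9.52 FPKM at S5, against 27.8 and 28.6 FPKM at S4, a difference of -1.62 ± 0.26 (SE, adjusted p = 5.6e-04). CSLD4, a cellulose-synthase-like protein, fell, with 0.564 and 1.17 FPKM at S5, against 1.49 and 8.19 FPKM at S4, a difference of -1.38 ± 0.45 (SE, adjusted p = 0.0332). CSLD2, of the same family, had 24.1 and 25.3 FPKM at S5 and 19.1 and 13.9 FPKM at S4 and was not called. CSLA1, a member of the mannan synthase family, fell, with 30.1 and 31.8 FPKM at S5, against 77.6 and 81.7 FPKM at S4, a difference of -1.34 ± 0.38 (SE, adjusted p = 0.0184). UAM1, a mutase that supplies arabinose precursors for wall glycans, rose, with 414 and 232 FPKM at S5, against 46.8 and 98.9 FPKM at S4, a difference of 2.17 ± 0.42 (SE, adjusted p = 0.00194). UAM1 had 292 and 316 FPKM at S1, 513 and 300 FPKM at S2 and 660 and 574 FPKM at S3. S4 was thus its lowest LJ stage, and S5 stood below S3. CSLD1 had 2.35 and 2.03 FPKM at S5, against 0 and 0.36 FPKM at S4, a difference of 1.45 given without a p, since it passed the filter on low values through its S5 libraries. The xylan genes IRX9L and IRX14 stood at 0.10 and 0.19, CSLC1 at 0.10 and XTH8 at -1.04, none of them called, and XTH8 was called lower with LJ and blade paired as blocks (adjusted p = 0.047). CSLD4 lost its call without S5 replicate 1, S5 replicate 2 or S4 replicate 2 (adjusted p up to 0.390) and CSLA1 without any 1 of the 4 libraries (adjusted p up to 0.0999). CSLD4 also lost its call with only the LJ libraries fitted or LJ and blade paired as blocks (adjusted p up to 0.0826).

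Of 7 lignin pathway genes, 1 rose and 2 fell, with a median of -0.39. The 4CL genes encode 4-coumarate:CoA ligases, which activate the precursors of lignin and of other phenolics. 4CL4 (OS06G0656500) rose, with 76.2 and 78.2 FPKM at S5, against 15.1 and 27.5 FPKM at S4, a difference of 1.87 ± 0.35 (SE, adjusted p = 0.00169). 4CL2 (OS02G0697400) fell, with 0.252 and 0.299 FPKM at S5, against 2.13 and 15 FPKM at S4, a difference of -2.47 ± 0.75 (SE, adjusted p = 0.0254). CAD2, the alcohol dehydrogenase of the last step to lignin monomers, fell, with 10.1 and 8.97 FPKM at S5, against 22.5 and 54 FPKM at S4, a difference of -1.77 ± 0.37 (SE, adjusted p = 0.00342). 4CL1, 4CL3 and 4CL5 stood at -0.22, -0.39 and 0.62 and were not called. 4CL2 lost its call without S5 replicate 1, S5 replicate 2 or S4 replicate 2 (adjusted p up to 0.248).

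Expansins loosen walls in growing cells. EXPA1 (OS04G0228400) fell, with 6.37 and 6.65 FPKM at S5, against 13.9 and 55.1 FPKM at S4, a difference of -1.94 ± 0.56 (SE, adjusted p = 0.0190), and S4 replicate 2 was well above the other S4 library. EXPA7 (OS03G0822000) fell, with 0.574 and 0.784 FPKM at S5, against 1.49 and 2.93 FPKM at S4, a difference of -0.90 ± 0.29 (SE, adjusted p = 0.0306), from averages of 16.7 ± 4.5, 12.6 ± 2.42 and 34 ± 5.72 FPKM at S1, S2 and S3 (SD, n = 2). EXPA2, EXPA4 and EXPA5 stood at 0.31, 0.27 and -1.33 and were not called. Of 5 alpha-expansins, 0 rose and 2 fell. The beta-expansin EXPB3 had 229 and 197 FPKM at S5 and 34.1 and 116 FPKM at S4, the largest difference of the 3 beta-expansins, and was not called at 1.74 ± 0.65 (SE, adjusted p = 0.0583). EXPB4, with 297 and 264 FPKM at S5 and 269 and 306 FPKM at S4, and EXPB6, with 5.27 and 6.1 FPKM at S5 and 2.24 and 10.5 FPKM at S4, overlapped between the stages. EXPA1 lost its call without S5 replicate 1, S5 replicate 2 or S4 replicate 2 (adjusted p up to 0.204) and EXPA7 without S5 replicate 1, S5 replicate 2 or S4 replicate 2 (adjusted p up to 0.227). EXPA1 also lost its call with a pseudocount of 0.1 (adjusted p = 0.0880) and EXPA7 with only the LJ libraries fitted (adjusted p = 0.0592).

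**Figure D2:**
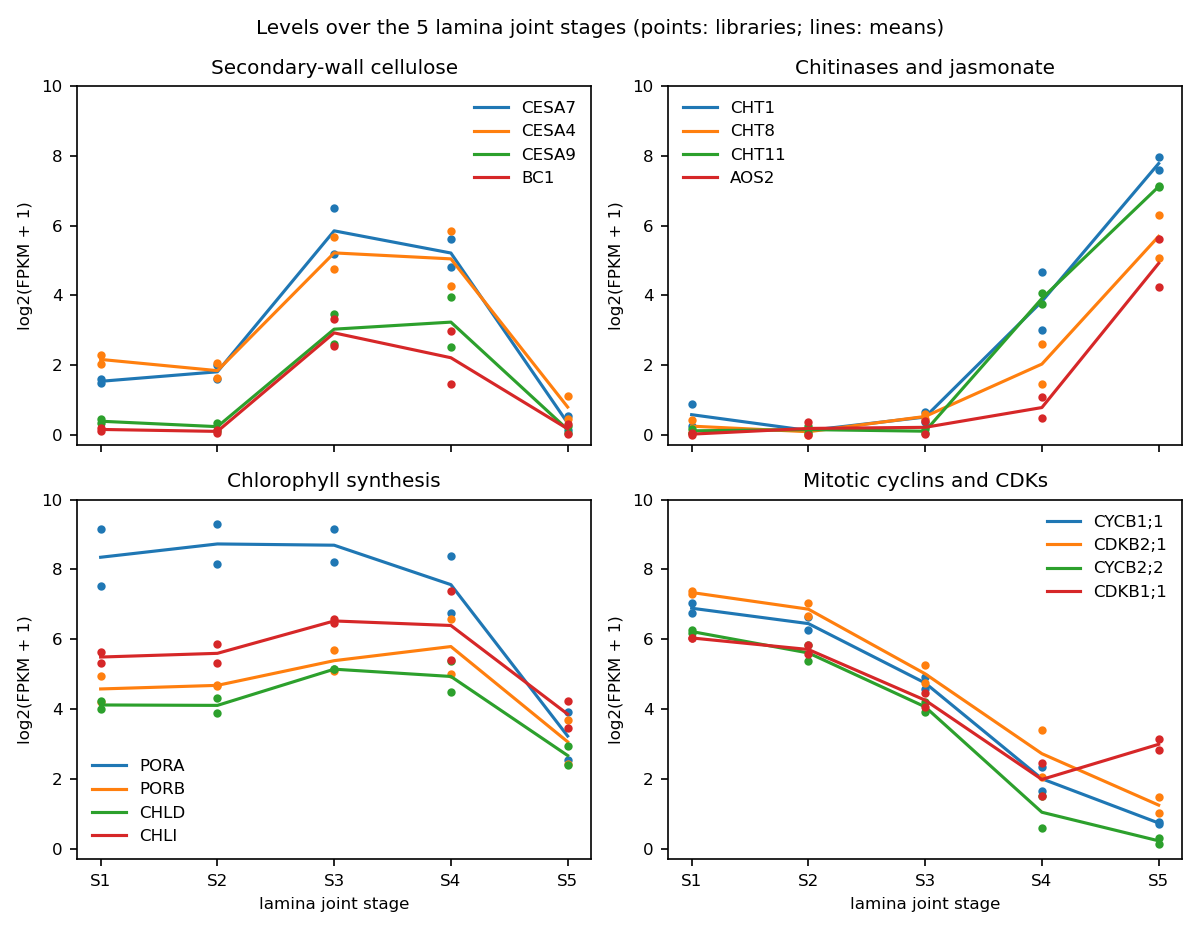
Log2(FPKM + 1) over the 5 LJ stages for 4 genes each of secondary-wall cellulose, chitinases with the jasmonate gene AOS2, chlorophyll synthesis, and mitotic cyclins and kinases, with points for libraries and lines for means on the log2 scale. The secondary-wall genes peak at S3 and S4 and are near 0 at S5, the chitinases and AOS2 are near 0 up to S3 and highest at S5, and the means of the mitotic genes are lower at each stage from S1 to S4, after which CDKB1;1 alone of the 4 is higher.

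Several genes of chlorophyll synthesis fell. Of 12 genes of chlorophyll synthesis, its regulation and breakdown, 5 fell and 2 rose, with a median of -1.18. PORA and PORB encode protochlorophyllide oxidoreductases, the light-dependent step, and PORA is known as the form of dark-grown and greening tissue. PORA (OS04G0678700) had 4.85 and 14 FPKM at S5, against 106 and 333 FPKM at S4, a difference of -4.34 ± 0.80 (SE, adjusted p = 0.00146). PORB (OS10G0496900) had 4.39 and 11.9 FPKM at S5, against 31.3 and 93.9 FPKM at S4, a difference of -2.73 ± 0.48 (SE, adjusted p = 0.00107). In both genes S4 replicate 2 was the highest library. CHLD and CHLI, subunits of the magnesium chelatase that opens the chlorophyll branch, both fell. CHLD had 4.23 and 6.72 FPKM at S5, against 21.3 and 40.9 FPKM at S4, a difference of -2.27 ± 0.33 (SE, adjusted p = 2.6e-04). CHLI had 10.1 and 17.9 FPKM at S5, against 41 and 167 FPKM at S4, a difference of -2.54 ± 0.64 (SE, adjusted p = 0.00952). The remaining subunit, CHLH, had 54.6 and 122 FPKM at S5 and 78.7 and 411 FPKM at S4 and was not called (adjusted p = 0.365). DVR, a vinyl reductase of the pathway, fell, with 6.45 and 9.99 FPKM at S5, against 29.8 and 40.3 FPKM at S4, a difference of -1.98 ± 0.30 (SE, adjusted p = 3.5e-04). The 2 that rose act elsewhere in the list. GLK2, a transcription factor that promotes chloroplast development, rose, with 154 and 137 FPKM at S5, against 35.9 and 73.2 FPKM at S4, a difference of 1.48 ± 0.35 (SE, adjusted p = 0.00713). NYC1, a reductase that starts the breakdown of chlorophyll b, rose, with 66 and 80.6 FPKM at S5, against 13.9 and 45.4 FPKM at S4, a difference of 1.49 ± 0.44 (SE, adjusted p = 0.0211). SGR, GLK1, NOL and CAO stood at 0.70, 0.34, -0.15 and -1.23, none of them called. CHLI lost its call without S5 replicate 1 or S4 replicate 2 (adjusted p up to 0.104) and GLK2 without S5 replicate 1 or S4 replicate 1 (adjusted p up to 0.0867). NYC1 lost its call without S5 replicate 1, S5 replicate 2 or S4 replicate 1 (adjusted p up to 0.245). NYC1 also lost its call with upper quartile scaling or only the LJ libraries fitted (adjusted p up to 0.0673).

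Light-harvesting transcripts were abundant and uneven between the S4 libraries. The chlorophyll-binding proteins CAB1R, CAB2R, LHCB2 and LHCB3 stood at -0.77, -2.05, -1.55 and -1.80, none of them called. CAB2R, a major light-harvesting protein of photosystem II, had 593 and 1149.9 FPKM at S5, against 1160.0 and 10037 FPKM at S4. CAB1R had 1239 and 1934 FPKM at S5, against 1117 and 6246 FPKM at S4. LHCB2 had 1048 and 1818 FPKM at S5, against 1664 and 9803 FPKM at S4. LHCB3 had 458 and 778 FPKM at S5, against 866 and 4993 FPKM at S4. In all 4 genes S4 replicate 2 was the highest library and S4 replicate 1 lay far below it. PSAH, a photosystem I subunit, fell, with 976 and 1888 FPKM at S5, against 2929 and 5354 FPKM at S4, a difference of -1.54 ± 0.54 (SE, adjusted p = 0.0442). RCA, the activase of Rubisco and the most abundant named gene at S5, had 3944 and 5420.1 FPKM at S5, against 538 and 3921 FPKM at S4, and was not called at 1.67 ± 0.99 (SE, adjusted p = 0.221). Of 5 genes of photorespiration and its neighbours, GLO1, a glycolate oxidase, rose, with 451 and 429.9 FPKM at S5, against 166 and 337 FPKM at S4, a difference of 0.89 ± 0.32 (SE, adjusted p = 0.0477). The other 4, CATA, CATB, GLO5 and PPDKB, stood between 0.54 and 1.20 without a call. MT2C, a metallothionein, had 2335 and 3087 FPKM at S5 and 786 and 1747 FPKM at S4, the next most abundant named gene at S5, and was not called at 1.20 ± 0.78 (SE, adjusted p = 0.268). The light-harvesting genes and RCA mark green mesophyll cells. The light-harvesting list summed to 3337 and 5680.0 FPKM in the S5 libraries, against 4806 and 31080.0 FPKM in the S4 libraries, so these transcripts were present in every joint library, and their part in other results was not tested. PSAH lost its call without S5 replicate 1 or S4 replicate 2 (adjusted p up to 0.301) and GLO1 without S5 replicate 1, S5 replicate 2 or S4 replicate 1 (adjusted p up to 0.413). PSAH also lost its call with no filter, quantile normalization or library weights (adjusted p up to 0.235) and GLO1 with a pseudocount of 0.1, upper quartile scaling, only the LJ libraries fitted or the replicate number as a block (adjusted p up to 0.222).

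Chitinase genes rose, with the highest median of the lists with at least 4 tested members. Chitinases cut chitin of fungal walls and are markers of defence in plants. Of 9 chitinase genes, 6 rose, 1 fell and 2 were not called, with a median of 2.09 beside 0.25 for all tested genes. CHT1 (OS06G0726200) had 249.7 and 191 FPKM at S5, against 6.97 and 24.2 FPKM at S4, a difference of 3.95 ± 0.45 (SE, adjusted p = 3.4e-05). CHT8 (OS10G0542900) had 78.3 and 32.6 FPKM at S5, against 1.76 and 5.05 FPKM at S4, a difference of 3.66 ± 0.39 (SE, adjusted p = 2.2e-05). CHT11 (OS03G0132900) had 139 and 137 FPKM at S5, against 15.8 and 12.5 FPKM at S4, a difference of 3.20 ± 0.30 (SE, adjusted p = 8.0e-06). For CHT11 the 2 libraries of a stage lay close together and far from the other stage. CHT11 averaged 0.0859 ± 0.0639, 0.114 ± 0.0969 and 0.0776 ± 0.0541 FPKM at S1, S2 and S3 (SD, n = 2), so S4 stood above these stages and S5 above S4. CHT3 rose, with 21.8 and 15.7 FPKM at S5, against 2.77 and 3.39 FPKM at S4, a difference of 2.26 ± 0.29 (SE, adjusted p = 9.6e-05). CHT10 rose, with 7.75 and 6.16 FPKM at S5, against 0.678 and 2.37 FPKM at S4, a difference of 1.73 ± 0.31 (SE, adjusted p = 0.00108). CHT4 had 9.36 and 5.83 FPKM at S5, against 0.168 and 2.35 FPKM at S4, a difference of 2.09 ± 0.47 (SE, adjusted p = 0.00518). CHT9 fell, with 0.338 and 1.64 FPKM at S5, against 5.52 and 24.2 FPKM at S4, a difference of -2.77 ± 0.74 (SE, adjusted p = 0.0135). CHT2 and CHT5 stood at 1.34 and 0.52 and were not called. CHT1 and CHT3, and CHT2 and CHT9, are neighbours by their IDs, and reads of near-identical copies may have been split between them. CHT4 lost its call without S5 replicate 1 or S4 replicate 1 (adjusted p up to 0.0681) and CHT9 without S5 replicate 1 or S4 replicate 2 (adjusted p up to 0.129).

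Of 6 genes listed as other defence proteins, 3 rose and 3 were not called, beside 19.5% of all tested genes called higher. BURP16 (OS10G0409400), a protein with a BURP domain, was placed in this list without evidence here of a role in defence. BURP16 had 209 and 376 FPKM at S5, against 18.7 and 9.0 FPKM at S4, a difference of 4.33 ± 0.66 (SE, adjusted p = 3.5e-04). CEBIP, the receptor that binds chitin fragments at the cell surface, rose, with 93.6 and 90.9 FPKM at S5, against 10.6 and 30.04 FPKM at S4, a difference of 2.30 ± 0.46 (SE, adjusted p = 0.00258). NH1, the rice counterpart of the salicylic acid regulator NPR1, rose, with 35.5 and 28.6 FPKM at S5, against 9.61 and 10.2 FPKM at S4, a difference of 1.59 ± 0.24 (SE, adjusted p = 3.5e-04). CERK1, the kinase that signals with CEBIP, had 41.5 and 38.7 FPKM at S5 and 23.3 and 20.2 FPKM at S4 and was not called (adjusted p = 0.0535). PBZ1, a defence protein, differed widely between the libraries of a stage, with 28.2 and 0.738 FPKM at S5 and 3.32 and 11.8 FPKM at S4, and RIXI, a xylanase inhibitor, was listed at 0 in both S5 libraries, against 0.726 and 0.0497 FPKM in the S4 libraries. Of 5 WRKY factors, regulators of defence genes, 1, WRKY24, rose, with 119 and 79.2 FPKM at S5, against 41.3 and 31.4 FPKM at S4, a difference of 1.41 ± 0.49 (SE, adjusted p = 0.0464). WRKY51, WRKY62, WRKY71 and WRKY76 stood at 0.06, -2.50, 0.74 and 1.03 and were not called. Among 4 antioxidant enzymes, SODA, the manganese superoxide dismutase of mitochondria, fell, with 113 and 132 FPKM at S5, against 2601 and 764 FPKM at S4, a difference of -3.52 ± 0.66 (SE, adjusted p = 0.00156). APX1, APX2 and SODCC1 stood at 0.29, -0.38 and 0.13 and were not called. WRKY24 lost its call without any 1 of the 4 libraries (adjusted p up to 0.257). WRKY24 also lost its call with a pseudocount of 0.1, no filter, upper quartile scaling or the replicate number as a block (adjusted p up to 0.0881).

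Jasmonate, a hormone of wounding and defence, is made by allene oxide synthase and later enzymes. AOS2 (OS03G0225900) had 47.7 and 17.8 FPKM at S5, against 0.394 and 1.13 FPKM at S4, a difference of 4.13 ± 0.45 (SE, adjusted p = 2.7e-05). AOS1 (OS03G0767000) had 75.6 and 52.8 FPKM at S5, against 30.6 and 31.5 FPKM at S4, a difference of 1.00 ± 0.26 (SE, adjusted p = 0.0117). OPR7, the reductase of the later step, rose, with 58.4 and 36.2 FPKM at S5, against 14.4 and 25.1 FPKM at S4, a difference of 1.23 ± 0.42 (SE, adjusted p = 0.0418). COI2, a jasmonate receptor, rose, with 32.1 and 25.3 FPKM at S5, against 12.5 and 11.1 FPKM at S4, a difference of 1.21 ± 0.30 (SE, adjusted p = 0.00859). The other 9 of 13 tested jasmonate genes, AOC, COI1A, COI1B, NINJA1 and the repressors JAZ6, JAZ8, JAZ9, JAZ10 and JAZ12, stood between 0.06 and 1.12 and were not called. The list had a median of 0.70, 4 higher and 0 lower, and with upper quartile scaling 2 higher, beside 19.5% of all tested genes called higher as reported. JAZ10 was the most abundant of the repressors, with 425 and 412 FPKM at S5 and 463 and 289.8 FPKM at S4. AOS1 lost its call without S5 replicate 1 or S4 replicate 1 (adjusted p up to 0.138) and OPR7 without S5 replicate 1, S5 replicate 2 or S4 replicate 1 (adjusted p up to 0.278). COI2 lost its call without S5 replicate 1 (adjusted p = 0.0874). AOS1 also lost its call with upper quartile scaling (adjusted p = 0.0707) and OPR7 with no filter, upper quartile scaling, quantile normalization or library weights (adjusted p up to 0.144).

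Of 7 ethylene genes, 2 rose and 1 fell, beside 19.5% higher and 9.01% lower over all tested genes. ERS1, an ethylene receptor, had 12.1 and 13.5 FPKM at S5, against 5.22 and 6.95 FPKM at S4, a difference of 0.97 ± 0.28 (SE, adjusted p = 0.0194). The synthases of the ethylene precursor were called in opposite directions. ACS2 rose, with 1.44 and 1.26 FPKM at S5, against 0.0853 and 0.393 FPKM at S4, a difference of 0.93 ± 0.24 (SE, adjusted p = 0.0110). ACS1 fell, with 1.49 and 3.02 FPKM at S5, against 4.54 and 4.81 FPKM at S4, a difference of -0.84 ± 0.29 (SE, adjusted p = 0.0414). ACO1, EIL1, EIN2 and ERS2 stood at 1.12, 0.22, 0.22 and 0.52 and were not called. For abscisic acid, ABA8OX3 (OS09G0457100), a hydroxylase that breaks the hormone down, rose, with 7.03 and 5.09 FPKM at S5, against 0.526 and 0.377 FPKM at S4, a difference of 2.27 ± 0.22 (SE, adjusted p = 1.2e-05). ABA8OX1 and ABA8OX2 stood at 0.61 and 0.11. Of 13 genes that respond to abscisic acid or to drought and cold, 1 rose and 12 were not called. SAPK1, a protein kinase, had 18.4 and 20.4 FPKM at S5, against 6.26 and 11.7 FPKM at S4, a difference of 1.09 ± 0.33 (SE, adjusted p = 0.0259). Among those not called, DREB1A had 392.5 and 450.0 FPKM at S5, against 78.1 and 217 FPKM at S4, at 1.68 ± 0.83 (SE, adjusted p = 0.145), and RAB16C had 0.234 and 0.853 FPKM at S5, against 0.385 and 6.09 FPKM at S4, at -1.05 ± 0.56 (SE, adjusted p = 0.177). ERS1 lost its call without S5 replicate 1, S5 replicate 2 or S4 replicate 1 (adjusted p up to 0.124) and ACS2 without S5 replicate 1 or S4 replicate 1 (adjusted p up to 0.0901). ACS1 lost its call without S5 replicate 1, S4 replicate 1 or S4 replicate 2 (adjusted p up to 0.351) and SAPK1 without S5 replicate 1, S5 replicate 2 or S4 replicate 1 (adjusted p up to 0.217). ERS1 also lost its call with upper quartile scaling (adjusted p = 0.0614) and ACS2 with a pseudocount of 0.1, upper quartile scaling or quantile normalization (adjusted p up to 0.0516). ACS1 also lost its call with a pseudocount of 0.1, no filter, only the LJ libraries fitted, library weights or LJ and blade paired as blocks (adjusted p up to 0.0838) and SAPK1 with upper quartile scaling, quantile normalization or only the LJ libraries fitted (adjusted p up to 0.120).

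LG1, a marker of the joint, was present at both stages and rose, while DL, listed with it for joint identity, was not called. LG1 (OS04G0656500), the SBP-domain factor needed to form the joint and ligule, had 24.4 and 18 FPKM at S5, against 8.21 and 9.98 FPKM at S4, a difference of 1.13 ± 0.27 (SE, adjusted p = 0.00675). LG1 averaged 6.97 ± 2.15, 4.18 ± 1.19 and 12.1 ± 1.73 FPKM at S1, S2 and S3 (SD, n = 2), so S5 was the highest LJ stage. In blade LG1 had 1.35 and 1.59 FPKM at S5 and 1.4 and 1.77 FPKM at S4. DL, a YABBY factor of the midrib, had 0.463 and 0.578 FPKM at S5 and 0.962 and 2.59 FPKM at S4. It stood at -0.805, the other direction from LG1, and was not called (adjusted p = 0.0597). Of the KNOX class I genes, which mark shoot meristem, OSH71 (OS05G0129700) rose, with 5.23 and 3.21 FPKM at S5, against 0.251 and 0.868 FPKM at S4, a difference of 1.74 ± 0.32 (SE, adjusted p = 0.00154). OSH71 averaged 3.72 ± 2.93 FPKM at S1, and 0.26 ± 0.00374 and 0.133 ± 0.0869 at S2 and S3 (SD, n = 2). OSH15 had 0.561 and 0.333 FPKM at S5 and 0.0711 and 0.0991 FPKM at S4 and was not called, and OSH1 was listed at 0 in all 4 libraries, against 6.82 ± 5.89 FPKM at S1 (SD, n = 2). OSH6 was not tested. LG1 lost its call without S5 replicate 1 or S4 replicate 1 (adjusted p up to 0.0854).

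Of 6 genes known to change leaf or shoot angle in rice, 1 rose and 2 fell. BU1, a helix-loop-helix protein that increases joint bending, fell, with 0.0945 and 0.225 FPKM at S5, against 0.883 and 1.15 FPKM at S4, a difference of -0.80 ± 0.23 (SE, adjusted p = 0.0216). BU1 had averaged 25.3 ± 2.83 FPKM at S3 (SD, n = 2). TAC1, which widens the tiller angle, fell, with 0.213 and 0.378 FPKM at S5, against 0.837 and 0.669 FPKM at S4, a difference of -0.44 ± 0.14 (SE, adjusted p = 0.0269), all values under 1 FPKM. SPL14, an SBP factor of plant architecture, rose, with 2.25 and 1.94 FPKM at S5, against 1.04 and 0.959 FPKM at S4, a difference of 0.63 ± 0.22 (SE, adjusted p = 0.0424). LAZY1, of shoot gravitropism, had 49.9 and 51 FPKM at S5 and 66.4 and 91.3 FPKM at S4. IBH1, an inhibitor of elongation, had 15 and 16 FPKM at S5 and 11.9 and 12 FPKM at S4. CYCU4;1, a cyclin that promotes cell division on the lower side of the joint, had 3.58 and 3.33 FPKM at S5 and 3.25 and 2.73 FPKM at S4. None of these 3 was called. Of the 9 tested SPL factors of the wider family, 3 rose. SPL9 had 20.4 and 19.3 FPKM at S5, against 1.92 and 10.9 FPKM at S4, a difference of 1.82 ± 0.54 (SE, adjusted p = 0.0228). SPL1 had 37.2 and 31.9 FPKM at S5, against 16 and 15.7 FPKM at S4, a difference of 1.07 ± 0.29 (SE, adjusted p = 0.0144). SPL6 had 19.3 and 19 FPKM at S5, against 10.3 and 10.9 FPKM at S4, a difference of 0.79 ± 0.24 (SE, adjusted p = 0.0266). The other 6, SPL2, SPL4, SPL5, SPL7, SPL15 and SPL16, stood between -0.26 and 0.54 without a call. BU1 lost its call without any 1 of the 4 libraries (adjusted p up to 0.141) and TAC1 without S5 replicate 1 or S4 replicate 1 (adjusted p up to 0.194). SPL14 lost its call without any 1 of the 4 libraries (adjusted p up to 0.212) and SPL9 without S5 replicate 1, S5 replicate 2 or S4 replicate 1 (adjusted p up to 0.262). SPL1 lost its call without S5 replicate 1, S4 replicate 1 or S4 replicate 2 (adjusted p up to 0.108) and SPL6 without any 1 of the 4 libraries (adjusted p up to 0.125). TAC1 also lost its call with only the LJ libraries fitted (adjusted p = 0.0529) and SPL14 with upper quartile scaling, quantile normalization, only the LJ libraries fitted, library weights or LJ and blade paired as blocks (adjusted p up to 0.105). SPL9 also lost its call with upper quartile scaling or quantile normalization (adjusted p up to 0.0683) and SPL6 with upper quartile scaling or quantile normalization (adjusted p up to 0.0726).

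Of 6 YABBY, 7 GRF and 8 HD-ZIP factors of leaf polarity and growth, 1 of each family fell and the others were not called. YAB1, a YABBY factor, fell, with 4.34 and 3.66 FPKM at S5, against 24.6 and 13.5 FPKM at S4, a difference of -1.95 ± 0.31 (SE, adjusted p = 4.5e-04). YAB2, YAB3, YAB4, YAB5 and YAB6 stood between -0.48 and 0.45 and were not called. YAB5 had averaged 126 ± 1.26 FPKM at S1 (SD, n = 2), against 0.432 and 0.696 FPKM in the S4 libraries. GRF4, a growth-regulating factor, fell, with 1.15 and 0.94 FPKM at S5, against 2.46 and 4.12 FPKM at S4, a difference of -1.04 ± 0.28 (SE, adjusted p = 0.0151). The 6 other GRF genes stood between -0.22 and 0.37. HOX9, a class III homeodomain factor of leaf polarity, fell, with 18.8 and 21.5 FPKM at S5, against 33.7 and 39.2 FPKM at S4, a difference of -0.82 ± 0.29 (SE, adjusted p = 0.0476). The 7 other HD-ZIP factors stood between -0.83 and 0.70. Of 9 MADS-box factors, MADS56 (OS10G0536100), a flowering regulator, rose, with 95 and 90.5 FPKM at S5, against 40.5 and 19.5 FPKM at S4, a difference of 1.68 ± 0.41 (SE, adjusted p = 0.00850). MADS18 fell, with 0.733 and 2.18 FPKM at S5, against 9.72 and 6.01 FPKM at S4, a difference of -1.88 ± 0.36 (SE, adjusted p = 0.00195). MADS55 rose by 0.84 ± 0.21 (SE, adjusted p = 0.00841), with 7.64 and 10.7 FPKM at S5 and 3.75 and 5.66 FPKM at S4, and MADS1 by 0.59 ± 0.10 (SE, adjusted p = 0.00107), with every value under 1 FPKM. MADS22, MADS26, MADS47, MADS50 and MADS57 stood between -0.22 and 0.60. NAC6, a stress-responsive NAC factor, rose, with 237 and 289 FPKM at S5, against 95.1 and 79.9 FPKM at S4, a difference of 1.57 ± 0.43 (SE, adjusted p = 0.0159). NAC3 and NAC4 stood at 0.89 and 0.18. GRF4 lost its call without S5 replicate 1, S5 replicate 2 or S4 replicate 2 (adjusted p up to 0.118) and HOX9 without any 1 of the 4 libraries (adjusted p up to 0.217). MADS56 lost its call without S5 replicate 1 or S4 replicate 2 (adjusted p up to 0.0837) and MADS55 without S5 replicate 2 or S4 replicate 1 (adjusted p up to 0.0893). NAC6 lost its call without S5 replicate 1, S5 replicate 2 or S4 replicate 2 (adjusted p up to 0.0888). HOX9 also lost its call with a pseudocount of 0.1 or library weights (adjusted p up to 0.0869) and MADS55 with upper quartile scaling or quantile normalization (adjusted p up to 0.0585).

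Of 12 Aux/IAA genes, repressors that auxin itself switches on, 2 fell and 1 rose, with a median of -0.64. Over all tested genes 9.01% were called lower and 19.5% higher. With upper quartile scaling 3 Aux/IAA genes were called lower and 1 higher, and with quantile normalization 2 lower and 1 higher. IAA13 (OS03G0742900) had 29.8 and 40.1 FPKM at S5, against 162 and 165 FPKM at S4, a difference of -2.21 ± 0.35 (SE, adjusted p = 4.7e-04), and the replicates of each stage lay close together. IAA13 had averaged 349 ± 8.17 FPKM at S3 (SD, n = 2). IAA31 had 30.4 and 43.2 FPKM at S5, against 83 and 80.8 FPKM at S4, a difference of -1.15 ± 0.35 (SE, adjusted p = 0.0246). IAA6 rose, with 60.4 and 51.9 FPKM at S5, against 22.4 and 16.2 FPKM at S4, a difference of 1.51 ± 0.29 (SE, adjusted p = 0.00201). The remaining 9 stood between -0.83 and -0.06. PIN1B, an auxin efflux carrier, fell, with 30.4 and 29.9993 FPKM at S5, against 72.8 and 81.9 FPKM at S4, a difference of -1.33 ± 0.32 (SE, adjusted p = 0.00741). GH3-2, an enzyme that conjugates auxin to amino acids, fell, with 2.03 and 2.07 FPKM at S5, against 4.71 and 4.96 FPKM at S4, a difference of -0.94 ± 0.23 (SE, adjusted p = 0.00860). FIB, a transaminase of auxin synthesis, YUCCA1, GH3-1 and GH3-8 stood at -0.17, -0.20, -0.55 and -0.23 and were not called. The 7 auxin response factors stood between -0.61 and 0.90, and limma called 0 of them. The largest of these differences was that of ARF19, with 12.9 and 8.63 FPKM at S5 and 3.89 and 6.79 FPKM at S4 (adjusted p = 0.0825). IAA31 lost its call without S5 replicate 1, S4 replicate 1 or S4 replicate 2 (adjusted p up to 0.190) and GH3-2 without S5 replicate 1 (adjusted p = 0.0556). GH3-2 also lost its call with a pseudocount of 0.1 (adjusted p = 0.298).

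Of 4 brassinosteroid synthesis genes, 2 fell. D2, a cytochrome P450 of the pathway, had 1.01 and 2.29 FPKM at S5, against 4.55 and 3.68 FPKM at S4, a difference of -0.99 ± 0.31 (SE, adjusted p = 0.0311). BRD1, the P450 that makes the active hormone, had 1.32 and 1.52 FPKM at S5, against 12 and 2.96 FPKM at S4, a difference of -1.57 ± 0.56 (SE, adjusted p = 0.0497). DWARF4 had 6.36 and 4.98 FPKM at S5 and 4.42 and 11.4 FPKM at S4 and D11 0.599 and 2.17 FPKM at S5 and 2.36 and 2.3 FPKM at S4, neither called. The 7 signalling genes, the receptor BRI1 and its partner BAK1, the kinase GSK2, and BZR1, LIC, D1 and TUD1, stood between -0.97 and 0.69, and limma called 0 of them. With upper quartile scaling 1 of the 7 was called lower, and with quantile normalization 1 as well. BRI1 had 29.3 and 28.4 FPKM at S5 and 79.4 and 41.8 FPKM at S4 at -0.97 ± 0.38 (SE, adjusted p = 0.0728). Of 14 tested cytokinin genes, 3 fell and 1 rose, beside 9.01% lower and 19.5% higher over all tested genes. With upper quartile scaling 5 were called lower and 1 higher, and with quantile normalization 4 lower and 1 higher. RR1 and RR4, response regulators that cytokinin switches on, both fell. RR4 had 6.37 and 8.1 FPKM at S5, against 38 and 25.6 FPKM at S4, a difference of -1.98 ± 0.43 (SE, adjusted p = 0.00426). RR1 had 1.72 and 2.21 FPKM at S5, against 6.06 and 8.56 FPKM at S4, a difference of -1.47 ± 0.24 (SE, adjusted p = 5.0e-04). CKX5 and CKX9 encode oxidases that break cytokinin down. CKX5 fell, with 11.4 and 8.83 FPKM at S5, against 43.7 and 38.4 FPKM at S4, a difference of -1.92 ± 0.40 (SE, adjusted p = 0.00333). CKX9 rose, with 3.34 and 2.45 FPKM at S5, against 0.416 and 0.708 FPKM at S4, a difference of 1.31 ± 0.19 (SE, adjusted p = 2.8e-04). The other 10 stood between -1.06 and 0.98. D35, the kaurene oxidase of gibberellin synthesis, rose, with 117 and 146 FPKM at S5, against 51.3 and 58.4 FPKM at S4, a difference of 1.24 ± 0.29 (SE, adjusted p = 0.00672). The other 8 gibberellin genes, SD1, KAO, CPS1, KS1, EUI1, GID1, GID2 and SLR1, stood between -0.39 and 0.81 and were not called. With quantile normalization 1 gibberellin gene was called lower. For strigolactone, the receptor D14 had 1262 and 989 FPKM at S5 and 529.9 and 836 FPKM at S4, and D14, D3 and D17 stood at 0.75, 0.53 and -0.13 without a call. D2 lost its call without S5 replicate 1, S4 replicate 1 or S4 replicate 2 (adjusted p up to 0.283) and BRD1 without S5 replicate 1, S5 replicate 2 or S4 replicate 1 (adjusted p up to 0.410). D35 lost its call without S5 replicate 2 (adjusted p = 0.0586). BRD1 also lost its call with no filter (adjusted p = 0.0759).

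Genes of cell division were already low at S4. CYCB1;1 (OS01G0805600), a cyclin of mitosis, averaged 118 ± 16.8, 87.1 ± 16.4 and 26 ± 4.39 FPKM at S1, S2 and S3 (SD, n = 2). At the last step it had 0.695 and 0.631 FPKM at S5, against 2.17 and 4.05 FPKM at S4, a difference of -1.27 ± 0.26 (SE, adjusted p = 0.00312). CDKB2;1, the kinase of mitosis, had 1.02 and 1.78 FPKM at S5, against 3.15 and 9.48 FPKM at S4, a difference of -1.47 ± 0.39 (SE, adjusted p = 0.0132). The cyclins CYCB2;1 and CYCB2;2, of the same phase, fell as well. CYCB2;1 had 0.237 and 0.771 FPKM at S5, against 1.16 and 2.98 FPKM at S4, a difference of -0.98 ± 0.32 (SE, adjusted p = 0.0320). CYCB2;2 had 0.0961 and 0.243 FPKM at S5, against 0.504 and 1.82 FPKM at S4, a difference of -0.82 ± 0.28 (SE, adjusted p = 0.0417). CDKB1;1 rose, with 6.1 and 7.89 FPKM at S5, against 1.82 and 4.53 FPKM at S4, a difference of 1.01 ± 0.30 (SE, adjusted p = 0.0212), and remained below its 18.3 ± 3.67 FPKM at S3 (SD, n = 2). Of 7 DNA replication genes, the helicase subunits MCM4 and MCM5 fell. MCM4 had 0.16 and 0.101 FPKM at S5, against 0.688 and 1.33 FPKM at S4, a difference of -0.81 ± 0.28 (SE, adjusted p = 0.0404). MCM5 had 0.011 and 0.0938 FPKM at S5, against 0.717 and 0.824 FPKM at S4, a difference of -0.75 ± 0.24 (SE, adjusted p = 0.0328). MCM2, MCM3, MCM6, MCM7 and PCNA stood between -0.83 and -0.19. KRP1, an inhibitor of cyclin-dependent kinases, rose, with 50.9 and 47.5 FPKM at S5, against 17.1 and 35.1 FPKM at S4, a difference of 0.97 ± 0.29 (SE, adjusted p = 0.0245). KRP3, KRP4, CDKA;1, CDKA;2 and CYCD4;1 stood between -0.62 and 0.05. Of 13 tubulin and actin genes, 1 rose, 1 fell and 11 were not called. TUBB3 rose, with 69.9 and 52 FPKM at S5, against 25.4 and 24.3 FPKM at S4, a difference of 1.25 ± 0.29 (SE, adjusted p = 0.00669). TUBB6 fell, with 2.34 and 2.44 FPKM at S5, against 5.56 and 7.36 FPKM at S4, a difference of -1.13 ± 0.32 (SE, adjusted p = 0.0191). CDKB2;1 lost its call without S5 replicate 1 or S4 replicate 2 (adjusted p up to 0.145) and CYCB2;1 without S5 replicate 1 or S4 replicate 2 (adjusted p up to 0.272). CYCB2;2 lost its call without S5 replicate 1, S5 replicate 2 or S4 replicate 2 (adjusted p up to 0.378) and CDKB1;1 without S5 replicate 1, S5 replicate 2 or S4 replicate 1 (adjusted p up to 0.229). MCM4 lost its call without S5 replicate 1, S5 replicate 2 or S4 replicate 2 (adjusted p up to 0.229) and MCM5 without any 1 of the 4 libraries (adjusted p up to 0.168). KRP1 lost its call without S5 replicate 1, S5 replicate 2 or S4 replicate 1 (adjusted p up to 0.260) and TUBB3 without S5 replicate 1 (adjusted p = 0.0811). TUBB6 lost its call without S5 replicate 1, S5 replicate 2 or S4 replicate 2 (adjusted p up to 0.103). CYCB2;1 also lost its call with only the LJ libraries fitted (adjusted p = 0.0727) and CYCB2;2 with only the LJ libraries fitted or LJ and blade paired as blocks (adjusted p up to 0.0905). CDKB1;1 also lost its call with upper quartile scaling, quantile normalization or only the LJ libraries fitted (adjusted p up to 0.0716) and MCM4 with no filter, only the LJ libraries fitted or LJ and blade paired as blocks (adjusted p up to 0.0824). MCM5 also lost its call with only the LJ libraries fitted or LJ and blade paired as blocks (adjusted p up to 0.0612) and KRP1 with upper quartile scaling, quantile normalization or only the LJ libraries fitted (adjusted p up to 0.113).

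Water and sugar transport genes moved both ways. TIP1;2, a tonoplast aquaporin, rose, with 13.7 and 17.5 FPKM at S5, against 0.352 and 3.97 FPKM at S4, a difference of 2.67 ± 0.91 (SE, adjusted p = 0.0404). TIP1;1 of the same membrane fell, with 81.5 and 77.4 FPKM at S5, against 229 and 191 FPKM at S4, a difference of -1.38 ± 0.42 (SE, adjusted p = 0.0259). PIP2;1, an aquaporin of the plasma membrane, fell, with 162 and 227 FPKM at S5, against 359 and 709 FPKM at S4, a difference of -1.39 ± 0.46 (SE, adjusted p = 0.0355). The 8 other aquaporins stood between -0.55 and 0.71, and TIP4;1 was the most abundant of the list, with 1452 and 659 FPKM at S5 and 1019 and 1055 FPKM at S4. Of 16 sugar genes, 4 fell and 2 rose. AMY3D, an alpha-amylase that degrades starch, fell, with 5.22 and 2.81 FPKM at S5, against 99.5 and 15.8 FPKM at S4, a difference of -3.08 ± 0.98 (SE, adjusted p = 0.0309). SUS1, a sucrose synthase, fell, with 17.6 and 8.5 FPKM at S5, against 49.3 and 42.4 FPKM at S4, a difference of -1.81 ± 0.49 (SE, adjusted p = 0.0150), from 992 ± 59 FPKM at S3 (SD, n = 2). CIN2, a cell-wall invertase, fell, with 0.176 and 0.0203 FPKM at S5, against 2.66 and 1.77 FPKM at S4, a difference of -1.54 ± 0.26 (SE, adjusted p = 7.0e-04). SWEET14, a sugar exporter, fell, with 2.83 and 3.87 FPKM at S5, against 6.03 and 18.9 FPKM at S4, a difference of -1.45 ± 0.41 (SE, adjusted p = 0.0177). The sucrose transporters SUT4 and SUT2 rose. SUT4 had 8.72 and 8.21 FPKM at S5, against 3.5 and 4.54 FPKM at S4, a difference of 0.92 ± 0.22 (SE, adjusted p = 0.00802). SUT2 had 32.6 and 34.4 FPKM at S5, against 14.5 and 24.3 FPKM at S4, a difference of 0.80 ± 0.28 (SE, adjusted p = 0.0474). The other 10 stood between -0.74 and 0.93. TIP1;2 lost its call without S5 replicate 1, S5 replicate 2 or S4 replicate 1 (adjusted p up to 0.267) and TIP1;1 without any 1 of the 4 libraries (adjusted p up to 0.117). PIP2;1 lost its call without S5 replicate 1, S5 replicate 2 or S4 replicate 2 (adjusted p up to 0.241) and AMY3D without S5 replicate 1, S5 replicate 2 or S4 replicate 1 (adjusted p up to 0.261). SUS1 lost its call without S5 replicate 2 or S4 replicate 1 (adjusted p up to 0.134) and SWEET14 without S5 replicate 1 or S4 replicate 2 (adjusted p up to 0.194). SUT4 lost its call without S5 replicate 1 or S4 replicate 1 (adjusted p up to 0.0670) and SUT2 without S5 replicate 1, S5 replicate 2 or S4 replicate 1 (adjusted p up to 0.336). TIP1;2 also lost its call with a pseudocount of 0.1, no filter, upper quartile scaling or quantile normalization (adjusted p up to 0.0927) and PIP2;1 with no filter or quantile normalization (adjusted p up to 0.0905). AMY3D also lost its call with no filter (adjusted p = 0.0516) and SWEET14 with a pseudocount of 0.1 (adjusted p = 0.127). SUT2 also lost its call with a pseudocount of 0.1, upper quartile scaling, quantile normalization or only the LJ libraries fitted (adjusted p up to 0.228).

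Of 8 nitrogen genes, 3 rose. FD-GOGAT, the chloroplast glutamate synthase, rose, with 395 and 496 FPKM at S5, against 51.2 and 201 FPKM at S4, a difference of 2.11 ± 0.56 (SE, adjusted p = 0.0126). AMT1;1, an ammonium transporter, rose, with 120.0 and 103 FPKM at S5, against 23.8 and 48.5 FPKM at S4, a difference of 1.68 ± 0.43 (SE, adjusted p = 0.0105). AMT1;3 rose by 1.03 ± 0.15 (SE, adjusted p = 2.2e-04), with 1.53 and 1.98 FPKM at S5 and 0.298 and 0.402 FPKM at S4. The other 5 nitrogen genes, NIA1, GS2, GS1;1, GS1;2 and GS1;3, stood between -1.26 and 1.25. GS1;2, a cytosolic glutamine synthetase, was called lower with LJ and blade paired as blocks (adjusted p = 0.033). With upper quartile scaling 2 nitrogen genes were called lower, and with quantile normalization 1. Of 13 tested genes of phosphate, potassium and metal transport, 4 rose and 2 fell. PT1, a phosphate transporter, had 503 and 415 FPKM at S5, against 165 and 150.3 FPKM at S4, a difference of 1.53 ± 0.40 (SE, adjusted p = 0.0119). PT8 had 92.3 and 69.7 FPKM at S5, against 44.7 and 28.7 FPKM at S4, a difference of 1.14 ± 0.36 (SE, adjusted p = 0.0286). HAK1, a high-affinity potassium transporter, rose, with 11.2 and 6.57 FPKM at S5, against 1.48 and 1.74 FPKM at S4, a difference of 1.88 ± 0.34 (SE, adjusted p = 0.00121). ZIP1, a transporter of zinc and related metals, rose, with 7.45 and 7.48 FPKM at S5, against 1.76 and 3.03 FPKM at S4, a difference of 1.35 ± 0.22 (SE, adjusted p = 5.8e-04). HKT2;1, a sodium and potassium transporter, fell, with 3.32 and 3.82 FPKM at S5, against 18 and 13.1 FPKM at S4, a difference of -1.84 ± 0.34 (SE, adjusted p = 0.00152). IRT2, an iron transporter, was listed at 0 in both S5 libraries, against 3.42 and 2.07 FPKM in the S4 libraries (adjusted p = 4.0e-04). The other 7 stood between -1.60 and 0.25, and SPX1, a sensor of phosphate, with 11.2 and 14.3 FPKM at S5 and 89.7 and 18 FPKM at S4, was called lower with LJ and blade paired as blocks (adjusted p = 0.0498). The silicon channel LSI1 rose, with 27.9 and 26.6 FPKM at S5, against 14.1 and 18.5 FPKM at S4, a difference of 0.72 ± 0.25 (SE, adjusted p = 0.0417). LSI6, a channel of xylem parenchyma, had 65.3 and 50.5 FPKM at S5 and 10.4 and 51.9 FPKM at S4 and was not called. LTP2, a lipid transfer protein, had 2.66 and 1.8 FPKM at S5, against 0.195 and 0 FPKM at S4, a difference of 1.55 given without a p for the same reason as that of CSLD1. LTP110-A had 591 and 658 FPKM at S5 and 382 and 301 FPKM at S4 without a call. Of 5 calcineurin B-like proteins and their kinases, limma called 0, and CIPK15 was called lower with LJ and blade paired as blocks. With upper quartile scaling 1 of the 5 was called lower, and with quantile normalization 1 as well. CIPK15 had 14.7 and 25.7 FPKM at S5, against 80.7 and 27.9 FPKM at S4, at -1.25 ± 0.50 (SE, adjusted p = 0.0742). The flowering regulator HD1 had 1.16 and 0.489 FPKM at S5 and 1.69 and 0.392 FPKM at S4 and was not called. FD-GOGAT lost its call without S5 replicate 1, S5 replicate 2 or S4 replicate 1 (adjusted p up to 0.152) and AMT1;1 without S5 replicate 1 or S4 replicate 1 (adjusted p up to 0.109). PT1 lost its call without S5 replicate 1 or S4 replicate 2 (adjusted p up to 0.0918) and PT8 without S5 replicate 1, S5 replicate 2 or S4 replicate 2 (adjusted p up to 0.190). LSI1 lost its call without S5 replicate 1, S5 replicate 2 or S4 replicate 1 (adjusted p up to 0.221). AMT1;1 also lost its call with a pseudocount of 0.1 (adjusted p = 0.0527) and PT8 with a pseudocount of 0.1 or upper quartile scaling (adjusted p up to 0.0755). LSI1 also lost its call with a pseudocount of 0.1, no filter, upper quartile scaling, quantile normalization or only the LJ libraries fitted (adjusted p up to 0.396).

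**Figure D3:**
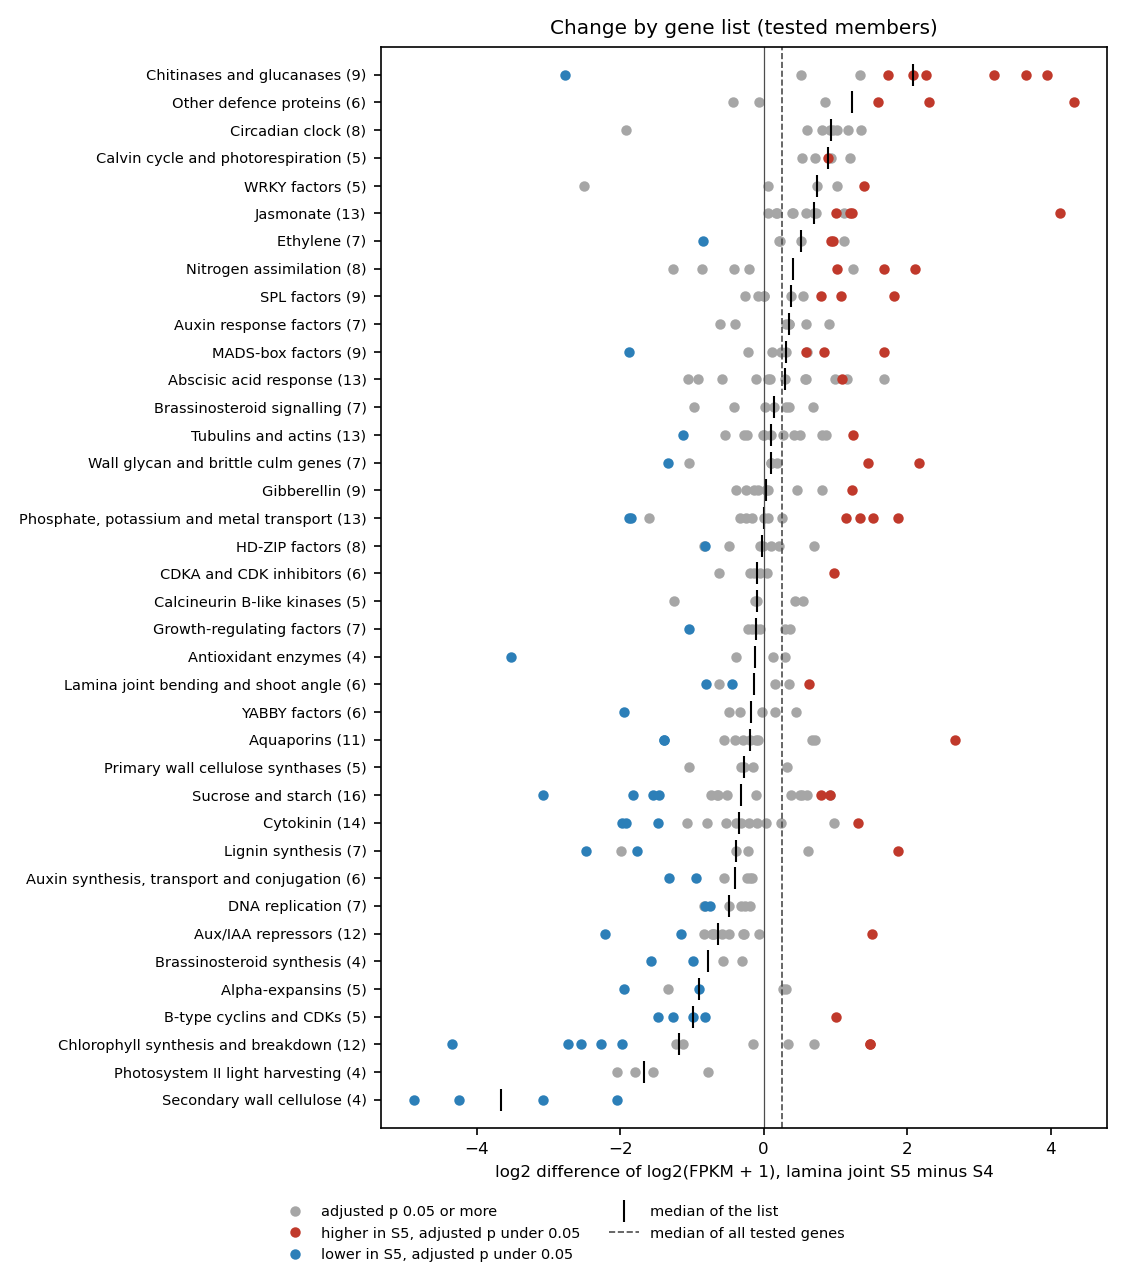
S5 minus S4 difference in LJ of log2(FPKM + 1) for each tested member (point) of the gene lists with at least 4 tested members, coloured by call, with each list's median (black bar) and the median of all tested genes (dashed line, 0.25). Secondary wall cellulose has the lowest median (-3.66) and chitinases and glucanases the highest (2.09).

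The 3 phytochrome genes tested rose, and 1 of the 3, PHYB, kept its call under either of the other scalings. PHYB (OS03G0309200), a phytochrome that senses red light, had 41 and 31.6 FPKM at S5, against 11.5 and 12.2 FPKM at S4, a difference of 1.53 ± 0.32 (SE, adjusted p = 0.00334). PHYA had 16.7 and 16 FPKM at S5, against 5.63 and 7.71 FPKM at S4, a difference of 1.19 ± 0.40 (SE, adjusted p = 0.0372). PHYC had 27.2 and 21.6 FPKM at S5, against 14.4 and 9.66 FPKM at S4, a difference of 0.98 ± 0.34 (SE, adjusted p = 0.0427). PHYA lost its call without any 1 of the 4 libraries (adjusted p up to 0.175) and PHYC without any 1 of the 4 libraries (adjusted p up to 0.229). PHYA also lost its call with a pseudocount of 0.1, no filter, upper quartile scaling, quantile normalization, only the LJ libraries fitted or LJ and blade paired as blocks (adjusted p up to 0.101) and PHYC with upper quartile scaling, quantile normalization or library weights (adjusted p up to 0.110).

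Clock genes set the S4 libraries apart from each other. LHY, a clock factor that peaks around dawn, had 95.9 and 363 FPKM at S5, against 9.81 and 498 FPKM at S4. LUX, an evening factor, had 17.4 and 1.28 FPKM at S5, against 253 and 1.37 FPKM at S4, the reverse order. GI, which peaks late in the day, had 132 and 59.1 FPKM at S5, against 112 and 21.9 FPKM at S4. PRR1 (TOC1), also of the evening, had 53.1 and 26.4 FPKM at S5, against 49.7 and 4.72 FPKM at S4. S4 replicate 1 was thus low in LHY and high in LUX, GI and PRR1, and S4 replicate 2 the opposite. At S5 replicate 1 was again below replicate 2 in LHY and above it in the other 3 genes, by smaller factors. In blade LHY had 90.8 and 396 FPKM at S5 and 7.31 and 541 FPKM at S4, and LUX 18 and 1.79 FPKM at S5 and 351 and 2.79 FPKM at S4, the same order as in LJ. Of 8 clock genes, limma called 0 between the stages, with 1 having an adjusted p under 0.1, PRR37, with 11.9 and 6.48 FPKM at S5 and 2.86 and 5.11 FPKM at S4. Of the heat shock genes, which respond to heat and other stress, HSP101 had 0.123 and 0.278 FPKM at S5, against 13.3 and 1.07 FPKM at S4, and HSFA2A had 0.0702 and 0.0409 FPKM at S5, against 1.92 and 0.0736 FPKM at S4, both highest in S4 replicate 1. HSP16.9B had 1.93 and 2.18 FPKM at S5 and 1.34 and 1.19 FPKM at S4, and none of the 3 was called. The light-harvesting genes, PORA and CHLI were also uneven between the S4 libraries, all of them higher in replicate 2. SODA and AMY3D were uneven the other way, with 2601 and 764 FPKM and 99.5 and 15.8 FPKM in LJ S4 replicates 1 and 2. In blade S4 they had 2643 and 566 FPKM and 68.8 and 5.64 FPKM, the same order. Time of collection is not in the labels, and the part of the clock, of stress and of the unevenness between the S4 libraries in these results was not tested.

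**Figure D4:**
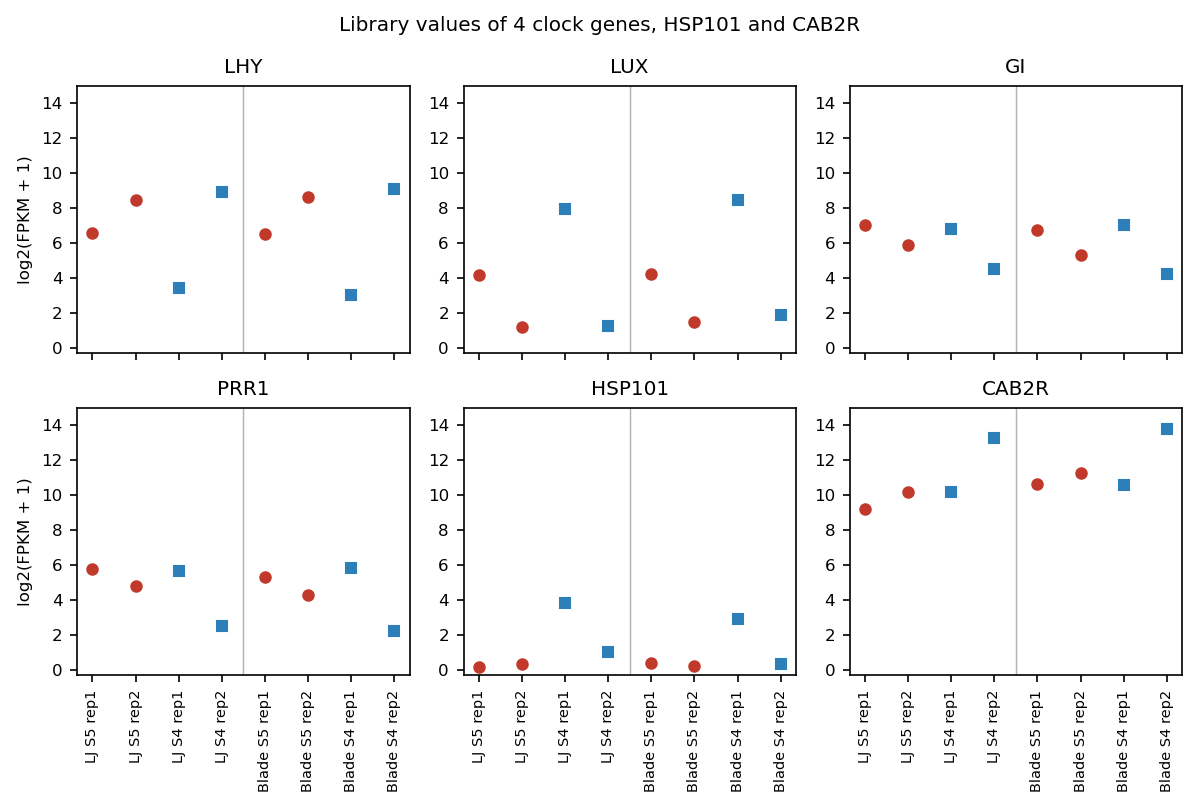
Log2(FPKM + 1) of 4 clock genes, the heat shock gene HSP101 and the light-harvesting gene CAB2R in each LJ library (left of the line) and blade library (right), S5 as red circles and S4 as blue squares. LHY is low and LUX high in S4 replicate 1 of both tissues, and replicate 2 shows the reverse.

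The same step was compared with that of the blade. In blade 8632 of 26403 genes (32.7%) were called between S5 and S4, 6289 higher (23.8%) and 2343 lower (8.87%), and the median difference of all tested genes was 0.28. Of the genes called higher in LJ, 4157 were also called higher in blade, 80.8% of the LJ list and 66.1% of the blade list. Of those called lower in LJ, 1570 were also called lower in blade, 66.0% of the LJ list and 67.0% of the blade list. Called in opposite directions were 7 genes higher in LJ and lower in blade and 1 lower in LJ and higher in blade. At S4 and S5, LJ and blade libraries that share a number deviated together (correlations of 0.774 and 0.516), so the tissues are not independent. The change itself differed between LJ and blade in 95 of 26403 genes (0.36%), 55 with a larger rise or smaller fall in LJ (0.208%) and 40 the other way (0.151%), and in 486 genes with LJ and blade paired as blocks. Of the 95, 46 of the 55 were called higher in LJ and 9 of the 40 lower. The 95 include OS03G0659266 and OS03G0667201, which passed the filter on low values through the LJ S4 libraries, where they were high. How many others passed through the group where they were high was not counted, so these counts are a description.

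ZIP1 was the named gene in the set of 95. In LJ it had 7.45 and 7.48 FPKM at S5, against 1.76 and 3.03 FPKM at S4, and in blade 0.908 and 1.29 FPKM at S5 and 3.88 and 2.44 FPKM at S4, high at S5 in LJ and low at S5 in blade. It changed by 1.35 ± 0.22 in LJ and -0.97 ± 0.22 in blade (SE), a difference of 2.32 ± 0.31 between the changes (adjusted p = 0.00338). Further named genes passed the test of the difference with LJ and blade paired as blocks and not without. LG1 changed by 1.13 ± 0.27 in LJ and -0.07 ± 0.27 in blade (adjusted p = 0.0446 with the blocks and 0.408 without). EXPA1 changed by -1.94 ± 0.56 in LJ and 0.68 ± 0.56 in blade (adjusted p = 0.0211 and 0.36), and ABA8OX3 by 2.27 ± 0.22 and 1.14 ± 0.22 (adjusted p = 0.0145 and 0.285). CIN2 changed by -1.54 ± 0.26 in LJ and -0.46 ± 0.26 in blade (adjusted p = 0.0456 and 0.515). Smaller in LJ than in blade were the rise of CHT8, 3.66 ± 0.39 against 5.92 ± 0.39 (adjusted p = 0.00900 and 0.163), and the fall of CSLA1, -1.34 ± 0.38 against -3.11 ± 0.38 (adjusted p = 0.0158 and 0.373). LAZY1, not called in LJ, stood at -0.62 ± 0.57 there and -3.75 ± 0.57 in blade (adjusted p = 0.0211 and 0.209), and CKX4 stood at 0.24 ± 0.20 in LJ and -0.97 ± 0.20 in blade (adjusted p = 0.0193 and 0.132). With CHT8, the largest named rises in LJ were those of BURP16, AOS2, CHT1 and CHT11, at 4.33, 4.13, 3.95 and 3.20. These genes were also called higher in blade, at 5.07 ± 0.66, 3.26 ± 0.45, 5.27 ± 0.45 and 3.30 ± 0.30 (SE). PORA, at -4.34 in LJ, was called lower in blade at -6.12 ± 0.80 (SE). For BURP16, AOS2, CHT1, CHT11 and PORA the difference between the changes was not called. Of the secondary-wall genes, CESA7 changed by -4.87 ± 0.47 in LJ and -3.59 ± 0.47 in blade, and CESA4 by -4.25 ± 0.51 and -4.19 ± 0.51. CESA9 changed by -3.08 ± 0.46 in LJ and -2.39 ± 0.46 in blade. BC1 changed by -2.04 ± 0.49 in LJ and by -0.94 ± 0.49 in blade, where it was not called (adjusted p = 0.154). The differences between the changes were -1.28 ± 0.66, -0.05 ± 0.72, -0.69 ± 0.65 and -1.10 ± 0.69 for CESA7, CESA4, CESA9 and BC1, and none was called, which does not show that the changes were alike.

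**Figure D5:**
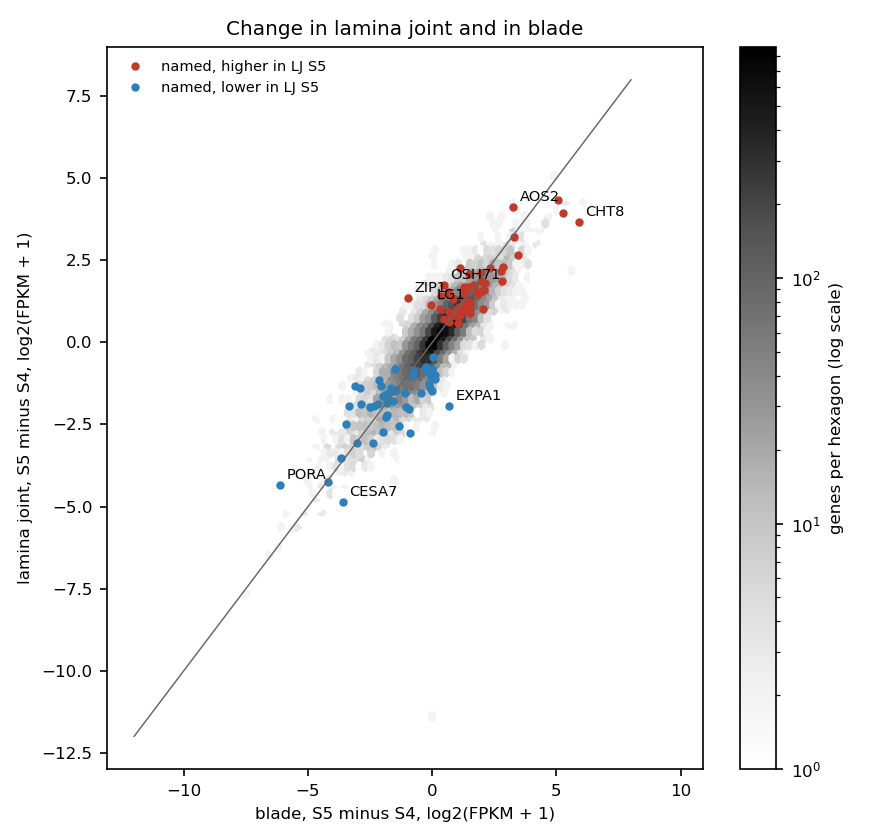
S5 minus S4 difference of log2(FPKM + 1) in LJ (y axis) against that in blade (x axis) for all 26403 tested genes (grey hexagons, log colour scale), with named genes called in LJ in red (higher) and blue (lower). The line marks equal change in both tissues, and ZIP1 (1.35 in LJ, -0.97 in blade) and EXPA1 lie off it.

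The 2 largest rises and the 2 largest falls among called genes belonged to IDs with no symbol. OS01G0963600 had 492 and 499 FPKM at S5, against 0.995 and 2.6 FPKM at S4, a difference of 7.53 ± 0.26 (SE, adjusted p = 1.8e-09). OS01G0910900 had 1009.6 and 499.5 FPKM at S5, against 5.04 and 3.63 FPKM at S4, a difference of 7.07 ± 0.50 (SE, adjusted p = 9.6e-07). In blade OS01G0910900 had 266 and 102 FPKM at S5 and 4.27 and 0.704 FPKM at S4, and OS01G0963600 had 86.3 and 131 FPKM at S5 and 0.409 and 0.559 FPKM at S4. OS03G0659266 was listed at 0 in both S5 libraries, against 4290.0 and 1701 FPKM in the S4 libraries, and OS03G0667201 was listed at 0 in both S5 libraries, against 3232 and 1961 FPKM in the S4 libraries. Each of these last IDs was above 0 in 1 other library of the series, blade S1 replicate 2, at 294 and 319 FPKM. They passed the filter on low values through the S4 libraries of LJ, where they were high, so their values are given as a description without a p.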

How the data were processed

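RNA sequencing of rice lamina joint (LJ) and leaf blade at 5 stages was used, 20 libraries in 10 groups of 2, grouped by tissue and stage in the labels. Per the submitters' processing notes, CASAVA 1.8, Trimmomatic 0.36, TopHat2 2.1.1 and Cufflinks 2.2.1 were used with the rice genome build IRGSP-1.0. The authors deposited FPKM values per gene for each library, with no read counts, so the depth is unknown and no counting interval can be given. Whether strand was used is not given, so reads of overlapping or antisense genes may be mixed, and near-identical copies may share reads.

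The 44803 features that are not rice gene IDs were left out, and of 37829 rice gene IDs the 26403 with at least 1 FPKM in at least 2 of 20 libraries were tested. Values were transformed to log2(FPKM + 1) with a pseudocount of 1, which understates changes of low genes. All 10 groups were fitted together with limma 3.58.1 in R 4.3.3 (trended variance, 10 residual and 4.09 prior degrees of freedom), and p-values were adjusted over all tested genes by Benjamini-Hochberg, with calls under 0.05. The difference between the LJ change and the blade change was an interaction contrast of the same fit. The procedure was tested on simulated data with far fewer changed genes than were called here. Most of the smaller changes were missed there, a share that does not carry over to these data. A gene not called may still have changed.

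Symbols came from background knowledge, as 537 symbol and ID pairs compared with the gene order of the RefSeq annotation (assembly ASM3414082v1), of which 375 passed and 336 were tested. Tandem copies cannot be told apart by gene order. Members and lists were chosen with earlier results of these data known. Of called genes without overlap of libraries, those named are the 15 largest rises and falls with a symbol, the largest rise and fall of each list, and 2 rises and 2 falls without a symbol. Members of lists under 10 and the 5 most abundant genes of each stage are named whether called or not, with exceptions. In the GRF, HD-ZIP, auxin response factor, calcineurin B-like and clock lists, some members without a call are given only in a range or a count. Further members were named after their values were seen, and 1 lignin pathway gene is not reported here. Lists built from gene descriptions and a promoter motif search were not run.

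Within a stage, LJ and blade share replicate numbers, and their deviations from the group means correlated at 0.478, 0.213, 0.662, 0.774 and 0.516 at S1 to S5, so the numbers were taken to pair the tissues. The value at S2 was near the 0.204 between LJ S5 and LJ S4, which share only the numbers. An alternative fit held these pairs as blocks (estimated correlation 0.495). Further alternatives were a pseudocount of 0.1, no filter and a filter of 5 FPKM, upper quartile and quantile scaling, library weights, fits of fewer libraries, a 2-fold minimum and leaving out each replicate.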

Additional observations from a re-analysis of the deposited data

Results flagged for a closer look

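The change from S4 to S5 differed between LJ and blade for ZIP1, by 2.32 on the log2(FPKM + 1) scale (limma interaction contrast, adjusted p = 0.00338). It was higher at S5 than at S4 in both pairs of LJ libraries and lower at S5 than at S4 in both pairs of blade libraries.

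Over all 26403 tested genes the LJ change and the blade change differed in 95 genes, and in 486 genes with LJ and blade paired as blocks. The 95 include OS03G0659266 and OS03G0667201, which passed the filter through the LJ S4 libraries, where they were high.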

How the results depend on the processing

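As reported, 7525 genes were called in LJ, 5145 higher and 2380 lower, and 95 genes changed differently in LJ and blade. With only the 4 LJ libraries of S5 and S4 in the fit, 0 genes were called, 0 higher and 0 lower, with 9563 at an unadjusted p under 0.05. Upper quartile scaling gave 3187 higher genes, and a 2-fold minimum gave 3373. The genes that changed differently numbered 28 with a pseudocount of 0.1, 223 without a filter, 21 with a filter of 5 FPKM and 36 with library weights, and 486 with LJ and blade paired as blocks. Leaving out 1 replicate gave 3139 to 6166 called genes, 2081 to 4356 higher, 1058 to 2026 lower, and 49 to 115 that changed differently. The fewest LJ calls, 3139, came without S5 replicate 1.

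The replicate number as an additive block gave 7523 called genes. The S5 and S4 libraries of LJ share only the numbers, with 2 pairs whose deviations correlated at 0.204. Of the 109 calls of named genes and of the 4 unnamed IDs, 47 held in every setting in which they were tested. The 2-fold minimum and the fit of 4 libraries were left out of this count. Some of the 47, CSLD1 and LTP2 among them, were not tested with the filter of 5 FPKM. The 47 include CSLD1, LTP2, OS03G0659266 and OS03G0667201, which passed the filter through the group where they were high. For these genes a call that held is no support. Of 231 named genes not called, 40 gained a call in some setting. Upper quartile scaling gave 11 such gains and quantile normalization 9, and only some of these gains are given above. No result reversed. Unknown depth limits what can be said of low genes.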
